A study of Mus musculus with 18 samples.

Results

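The cyclic nucleotide phosphodiesterases of heart are described here by their DNA methylation peaks in sham-operated mice and in other mice after myocardial infarction (MI). The 9 genes Pde4d, Pde4a, Pde4b, Pde3a, Pde3b, Pde1a, Pde1c, Pde2a and Pde5a were taken from 21887 protein-coding genes, each with 2000 bases added on both sides. They held 167 of the 152196 regions obtained by merging the overlapping peaks of all libraries. The genes were listed by family, but Pde4d was chosen from measured values, because 1 region in it had a peak in most MI libraries and in no sham library. For Pde4d, every value of MI against sham is therefore a description without a test.

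Phosphodiesterases break down the second messengers cAMP and cGMP and so end the signals of adrenergic, natriuretic peptide and nitric oxide receptors. In heart muscle they keep cAMP in small compartments, where it governs calcium handling, contraction force and relaxation. PDE4 enzymes are specific for cAMP, PDE5 is specific for cGMP, and PDE1, PDE2 and PDE3 act on both. Methylation of CpG sites, cytosines followed by guanine, is usual inside mammalian genes and usually low at CpG-rich promoters.

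Heart muscle came from 12-week-old male C57BL/6 mice in 6 groups of 3 mice, anaesthetised with sodium pentobarbital. In the 5 MI groups a ligature closed the left anterior descending coronary artery, and tissue was taken 10 min later, or after 1 h, 6 h, 24 h or 72 h. In the sham group the suture was passed but the artery was not closed. The labels give the material as myocardial tissue and also as cardiomyocytes, without describing a cell isolation, and do not say whether infarcted or remote muscle was taken. In DNA from whole tissue, a changed mix of cells and changed methylation within 1 cell type cannot be told apart.

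Each library was made by methylated DNA immunoprecipitation sequencing (MeDIP-seq), in which fragments holding methylated cytosine are pulled down with an antibody and sequenced. A peak is a stretch where such fragments pile up, so it shows that methylated DNA was captured, not which share of molecules was methylated. The deposited score, whose scale is not stated, ranks the peaks of a list and is not a level of methylation. Its lowest value was 50 in every library, and the median score of a library was 69.1 to 75.9. The lists held 34255 to 60653 peaks, with the fewest in 6 h replicate 3 and the most in 72 h replicate 2, and they covered 42.7 to 63.0 Mb. Read depth is unknown, so an absent peak may also be a site that was not sampled deeply enough. For the same reason a difference in score between libraries may not be a difference in methylation. The 9 genes held 34 to 59 peaks per library, with the highest number again in 72 h replicate 2.

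Promoter windows are shown first, because the genes differed there in whether a peak was present at all. RefSeq (GRCm38.p6) lists 21 windows for 7 of the 9 genes, each from 250 bases before to 50 bases after a transcription start; Pde3a and Pde3b have no entry in the table. A peak overlapped 2 of the 21 windows, an internal promoter of Pde4b at chr4:102421305-102421604 (plus strand) and an internal promoter of Pde1c at chr6:56369585-56369884 (minus strand). The sequences below set these beside 2 windows that no peak touched, the CpG-rich Pde2a promoter at chr7:101451002-101451301 (plus strand) and the CpG-poor Pde4d promoter at chr13:108653927-108654226 (plus strand). They run 5′ to 3′ along the gene, with each CpG in capitals.
Pde4b: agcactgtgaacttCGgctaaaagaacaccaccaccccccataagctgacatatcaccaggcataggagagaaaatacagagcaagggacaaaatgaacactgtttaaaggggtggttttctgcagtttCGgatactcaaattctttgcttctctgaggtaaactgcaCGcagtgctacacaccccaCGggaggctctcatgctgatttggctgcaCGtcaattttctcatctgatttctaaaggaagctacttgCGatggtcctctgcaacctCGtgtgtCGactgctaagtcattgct
Pde1c: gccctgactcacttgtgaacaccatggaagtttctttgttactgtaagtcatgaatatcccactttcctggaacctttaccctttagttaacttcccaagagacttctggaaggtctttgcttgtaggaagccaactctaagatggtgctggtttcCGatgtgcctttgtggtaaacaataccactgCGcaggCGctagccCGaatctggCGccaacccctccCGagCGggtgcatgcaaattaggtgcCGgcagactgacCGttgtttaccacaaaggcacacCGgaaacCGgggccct
Pde2a: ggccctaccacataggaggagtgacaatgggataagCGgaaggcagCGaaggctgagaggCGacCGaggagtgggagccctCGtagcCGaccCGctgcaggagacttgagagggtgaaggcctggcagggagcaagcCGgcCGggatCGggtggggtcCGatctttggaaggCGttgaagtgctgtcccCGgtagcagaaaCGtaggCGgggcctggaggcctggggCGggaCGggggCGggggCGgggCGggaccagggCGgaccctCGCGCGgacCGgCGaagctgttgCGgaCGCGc
Pde4d: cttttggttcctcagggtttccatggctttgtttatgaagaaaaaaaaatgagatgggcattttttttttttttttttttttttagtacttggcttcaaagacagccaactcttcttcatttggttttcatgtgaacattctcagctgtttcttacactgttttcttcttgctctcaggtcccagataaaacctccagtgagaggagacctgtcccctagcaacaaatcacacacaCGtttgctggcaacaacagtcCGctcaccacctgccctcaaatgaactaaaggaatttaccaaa

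The Pde4b window holds 8 CpG sites and had a peak in 15 of 18 libraries (13 after MI, 2 sham). It lies 334 kb inside the gene, which encodes a cAMP-specific enzyme with many transcription starts. Peak scores there were 69.3 and 62.1 in sham replicates 1 and 2, and replicate 3 had no peak. In the 72 h libraries they were 82.3, 167 and 91.9, above both sham values. The other MI libraries with a peak scored 54.3 to 99.5 and overlapped the sham values. At a score of at least 70 the window's region kept its peak in 7 MI libraries and 0 sham libraries. The other 3 listed Pde4b promoters, with 1 to 6 CpG sites, had no peak in any library.

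The Pde1c window holds 11 CpG sites and had a peak in 11 of 18 libraries (9 after MI, 2 sham). Pde1c encodes a phosphodiesterase activated by calcium and calmodulin. The region around the window, chr6:56368882-56370077, also overlaps the predicted gene Gm34753, and the peak cannot be given to one of them. Scores were 79.5 and 78.0 in sham replicates 1 and 2 and between 79.7 and 189 in the MI libraries, with the highest in 72 h replicate 1. All 3 libraries of the 6 h group had a peak (127, 81.6 and 80.8), against 1 of 3 at 10 min and at 1 h. The other 2 listed Pde1c windows, about 6 kb away with 4 and 5 CpG sites, had none.

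The listed windows of these genes with 20 or more CpG sites were without a peak in every library. They were the first Pde4a promoter and the Pde2a promoter shown above, with 29 CpG sites each, and the Pde5a promoter, with 23. Among all 32851 listed promoters, 1.24% of those with 20 or more CpG sites had a peak in any library, against 20.2% of those with 5 to 9 and 14.8% of those with 10 to 14. A peak in 15 or more libraries, as at the Pde4b window, was found at 1.63% of promoters with 5 to 9 CpG sites. Peaks came close to other member starts: a region of Pde1a in 17 libraries ended 1433 bases from 1 of its listed promoters. The annotated 5′ end of Pde1a, which has no listed window, lay inside another region, chr2:80195440-80197050. That region had a peak in 12 libraries (9 after MI, 3 sham) and is named after its values were seen. The annotated 5′ ends of Pde4b and Pde1c also have no listed window, as their first ones lie 334 kb and 283 kb inside the gene. The nearest region to the Pde5a start, 1012 bases away, had a peak in 1 library.

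**Figure D1:**
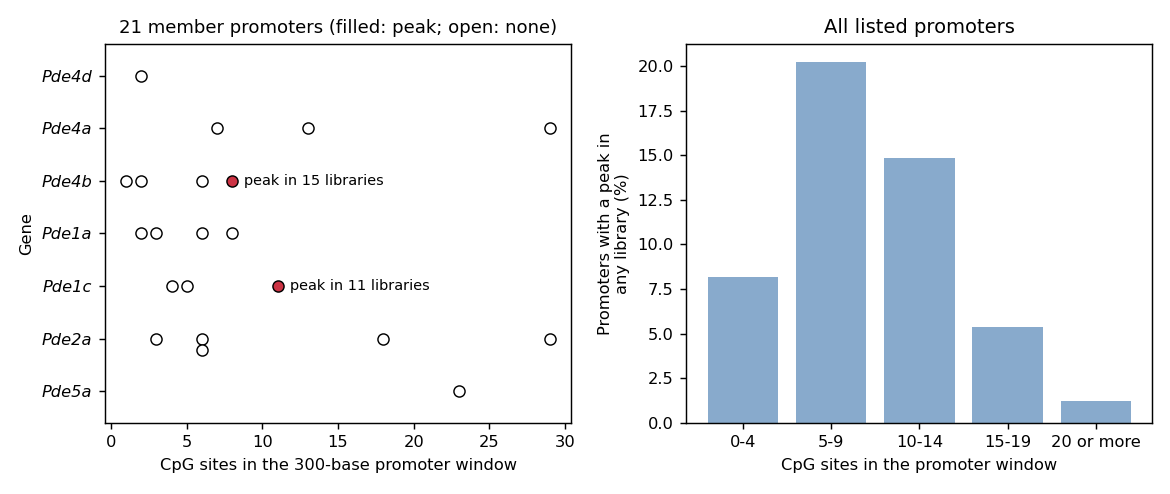
Left, each of the 21 listed promoter windows of 7 phosphodiesterase genes by its number of CpG sites (x axis) and gene (y axis); filled points had a peak and open points had none, and points with equal values in a gene are drawn one under the other. Right, bars give the percentage of all listed promoters with a peak in any library by number of CpG sites; the filled Pde4b and Pde1c points hold 8 and 11 CpG sites, the range where 20.2% and 14.8% of all promoters had a peak.

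The cAMP response element, bound by CREB, is TGACGTCA in full and TGACG or CGTCA as its shorter core, searched on both strands. The full element was in 0 of the 21 windows and in 1.79% of all listed promoters. The core, which the full element also contains, was in 4 of the 21 windows and in 20.8% of all. The Pde4b window printed above is among the 4, with the core on the minus strand (CGTCA in the printed sequence).

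Pde4d, the largest of the 9 genes (chr13:108654177-109955969, plus strand), held 76 of the 167 regions and 392 peaks over the 18 libraries. It encodes the cAMP-specific PDE4D, whose variants are anchored at the ryanodine receptor and other calcium-handling complexes. Peaks were not even along its length. The 20% of its length nearest the 3′ end held 23 regions and 42.6% of the peaks, against 11.2% in the first 20%. Per library the gene had 23.0 ± 1.00 peaks in sham (SD, n = 3) and 21.5 ± 4.24 in MI (n = 15), with a mean of 25.3 ± 7.51 in the 72 h group.

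**Figure D2:**
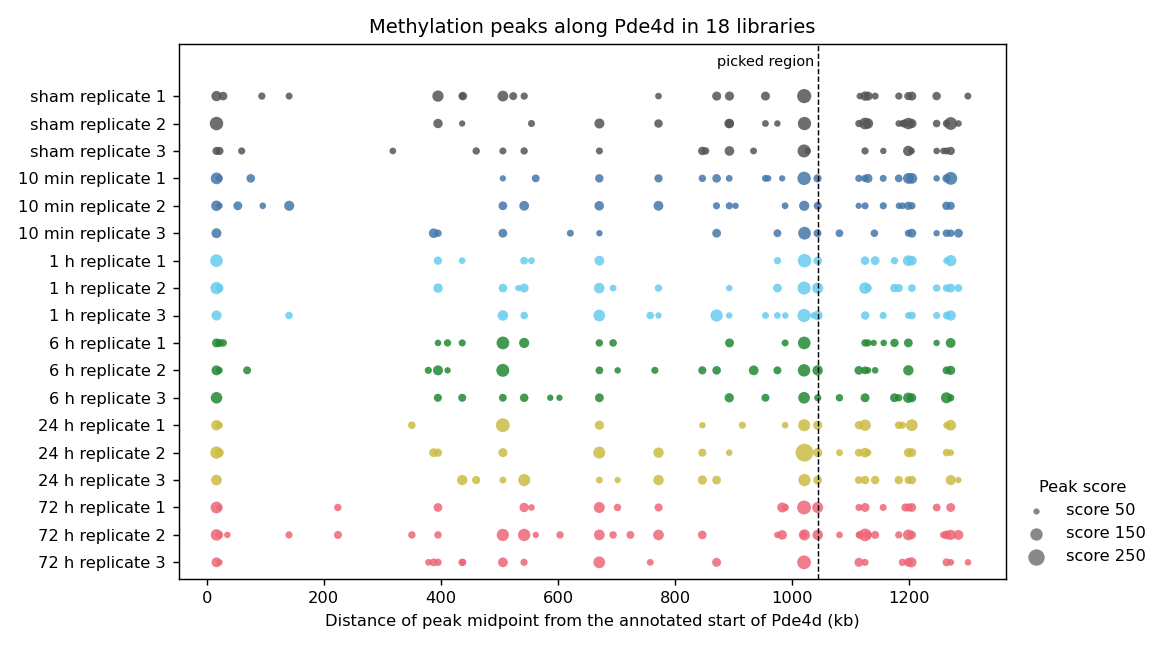
Every peak in Pde4d in each of the 18 libraries (rows), placed by the distance of its midpoint from the annotated gene start in kb; point size follows the peak score. The dashed line marks the chosen region at 1043 kb, where 13 MI libraries and 0 sham libraries have a peak, and the column at 1020 kb has a peak in all 18.

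The region that led to the choice of Pde4d is chr13:109696930-109698361, 1043 kb from the gene start and 80.2% along the gene. It was selected on its presence in 13 of 15 MI and 0 of 3 sham libraries. By group, 3 of 3 libraries of the 10 min, 1 h and 24 h groups had a peak, as did 2 of 3 in the 6 h and 72 h groups; 6 h replicate 1 and 72 h replicate 3 had none. Across the whole series 57 regions, or 0.0375%, met the same rule of at least 12 MI and no sham libraries.

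Scores in the chosen region were moderate. At 10 min they were 74.8, 73.0 and 71.0, and at 1 h 78.1, 123 and 99.3. Replicates 2 and 3 at 6 h scored 109 and 60.1. At 24 h the scores were 90.5, 91.3 and 83.7, and replicates 1 and 2 at 72 h scored 124 and 113. The median of the 13 peaks, 90.5, lay above 71.3% of all peaks in the series, and the groups' scores overlapped. At a score of at least 70 the region kept 12 MI libraries, losing 6 h replicate 3, and with all lists cut to the same length it kept 13. When peaks had to cover at least 50% of the region, 8 MI libraries were left. The sham libraries stayed at 0 in each of these.

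Of the Pde4d regions without a sham peak, the next in number of MI libraries, chr13:109641386-109642774, had a peak in 5 MI libraries and 0 sham libraries, 1 library at each time, with scores of 53.0 to 64.1. A region 35.9 kb beyond the chosen one had 4 MI and 0 sham libraries, and one 68.7 kb beyond had 9 MI and 1 sham. Near the gene start, chr13:108675414-108676472 had a peak in 10 MI libraries and 1 sham library, with a mean score of 63.1 ± 11.01 (SD); it is named after its values were seen. Of the 33 Pde4d regions without a sham peak, 19 had a peak in a single MI library.

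Shortly before the chosen region, at 1020 kb from the start, lies chr13:109672612-109675956, one of 2 Pde4d regions with a peak in all 18 libraries. Its mean score was 161 ± 44.2 (SD over 19 peaks, since 72 h replicate 2 had 2), the strongest of the regions in 15 or more libraries in these genes. By the strongest peak of each library, sham scored 192, 171 and 165, and MI libraries 108 to 293 with group means of 146 to 194. The sham values lay inside the MI range, so this neighbour showed no separation of the groups. The other region in all 18, chr13:108670265-108671699 near the gene start, overlaps the pseudogene Rps3a3, and its reads may belong to copies of that sequence elsewhere.

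Pde4d also held 2 regions with a peak in every sham library and none at 1 of the times. In chr13:109545792-109547903 the number of libraries with a peak was 3 in sham and, in order of time, 2, 2, 2, 1 and 0 after MI. The strongest peak of each sham library scored 89.7 to 97.9, and the MI peaks scored 52.3 to 91.4, with only 6 h replicate 3 reaching the sham range. In chr13:109900139-109901489 the number was 3 in sham and then 2, 2, 1, 0 and 1, with all scores below 79. Of its sham libraries 1 was left at a score of at least 70, and 1 with lists of equal length, so that it was no longer a lost region, whereas the region from 109545792 kept 3 in both. As regions of Pde4d these are descriptions.

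The region from 109323851 in Pde4d, with a peak in 17 libraries, contains Mir582, a microRNA gene lying inside Pde4d on the same strand. Its mature products (RefSeq, GRCm38.p6) are given with their seeds, bases 2 to 8, in capitals, since methylation was called over the sequence that encodes them.
mmu-miR-582-5p: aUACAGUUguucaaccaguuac
mmu-miR-582-3p: uAACCUGUugaacaacugaac
Mean scores over libraries with a peak were 81.8 ± 31.7 in sham (SD, n = 2). For the MI groups (n = 3 each) they were, from the earliest to the latest time, 75.1 ± 21.8, 117 ± 18.8, 72.4 ± 10.1, 96.9 ± 42.6 and 125 ± 10.8. They went up and down over the times, and every group's mean lay within the range of another group's libraries.

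**Figure D3:**
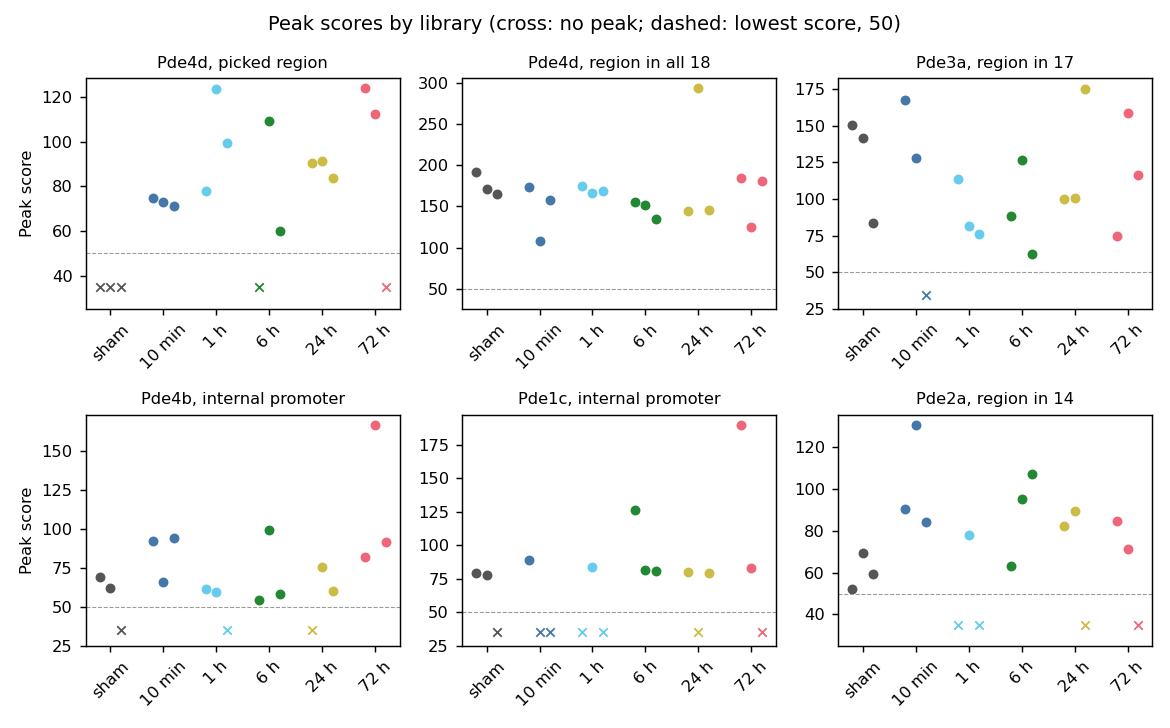
Strongest peak score (y axis, each panel with its own scale) of every library by group (x axis) in 6 regions of Pde4d, Pde3a, Pde4b, Pde1c and Pde2a; crosses below the dashed line are libraries without a peak. The chosen Pde4d region has crosses in all 3 sham libraries, the Pde4d region in all 18 has none, and the sham points of Pde2a lie between 52.3 and 69.1.

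The other PDE4 genes had fewer peaks. Pde4b held 16 regions, and the one shared by the most libraries, chr4:102371002-102372132, had a peak in 15 of 18 with a mean score of 128 ± 37.8. Its sham libraries scored 91.7 and 116 (replicate 1 had none), and the MI scores of 61.0 to 199 included both. Pde4a, with 3 regions, had its most shared one, chr9:21187195-21188575, in 2 sham libraries and 5 MI libraries. Scores there were 103 and 98.3 in sham and 52.9 to 88.9 in MI, so the values did not overlap, and 0 of 3 libraries had a peak at 72 h.

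Pde3a and Pde3b encode enzymes of cAMP breakdown that cGMP inhibits, and PDE3A is the target of the inotropic drug milrinone. Pde3a had 2 regions in 17 of 18 libraries. In the stronger, chr6:141491697-141492896, sham libraries scored 150, 142 and 83.9, and MI libraries 62.8 to 175, a range that held all sham values. In the other, chr6:141327122-141328844, sham scores were 78.8 to 109 with a mean of 96.8 ± 15.8 (n = 3), inside the MI range too. Pde3b was nearly empty: 4 peaks in 4 libraries, with its most shared region at chr7:114516098-114516674 in 1 sham and 1 MI library (10 min replicate 3).

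Pde1a, another calcium-calmodulin-activated enzyme, had a region in 17 of 18 libraries, chr2:80131095-80132714, which overlaps the predicted gene Gm13674. Its scores were 76.4, 53.7 and 102 in sham and 50.2 to 121 in MI. A second Pde1a region, chr2:80040440-80041617, had a peak in all 3 libraries at 1 h (52.0, 53.6 and 65.9), in 1 each at 24 h and 72 h, and in no sham library. Its scores were near the lowest that a list holds, 3 MI libraries were left with lists of equal length, and at a score of at least 70 none was left. In Pde1c, chr6:56183308-56184594 had a peak in all 3 libraries at 72 h (96.4, 65.3 and 59.4), in 1 each at 1 h and 6 h, and in no sham library; at the same stricter score only 72 h replicate 1 was left, and with lists of equal length 1 MI library. The most shared Pde1c region, chr6:56128351-56129560, had a peak in all 9 libraries of sham, 10 min and 1 h and in 2, 2 and 1 of 3 at 6 h, 24 h and 72 h.

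Pde2a encodes a cGMP-stimulated enzyme and Pde5a the cGMP-specific target of sildenafil. In Pde2a, chr7:101485470-101486783 was found in every sham library and in 11 of the 15 MI libraries. Sham scores were 52.3, 69.1 and 59.1. MI scores were 63.2 to 130, and all but 6 h replicate 1 lay above the sham values; at a score of at least 70 the count was 10 MI and 0 sham libraries. In Pde5a, chr3:122731290-122732551, 2.76 kb from the gene start, had a peak in all 3 sham libraries (59.0, 84.6 and 81.4), in 5 of 15 MI libraries and in none at 72 h; at a score of at least 70, and also with lists of equal length, 2 sham libraries were left, which ends the call of a lost region. The most shared Pde5a region, chr3:122836446-122837869, overlaps the predicted gene Gm34577 and had a peak in 9 libraries, 7 after MI and 2 sham.

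**Figure D4:**
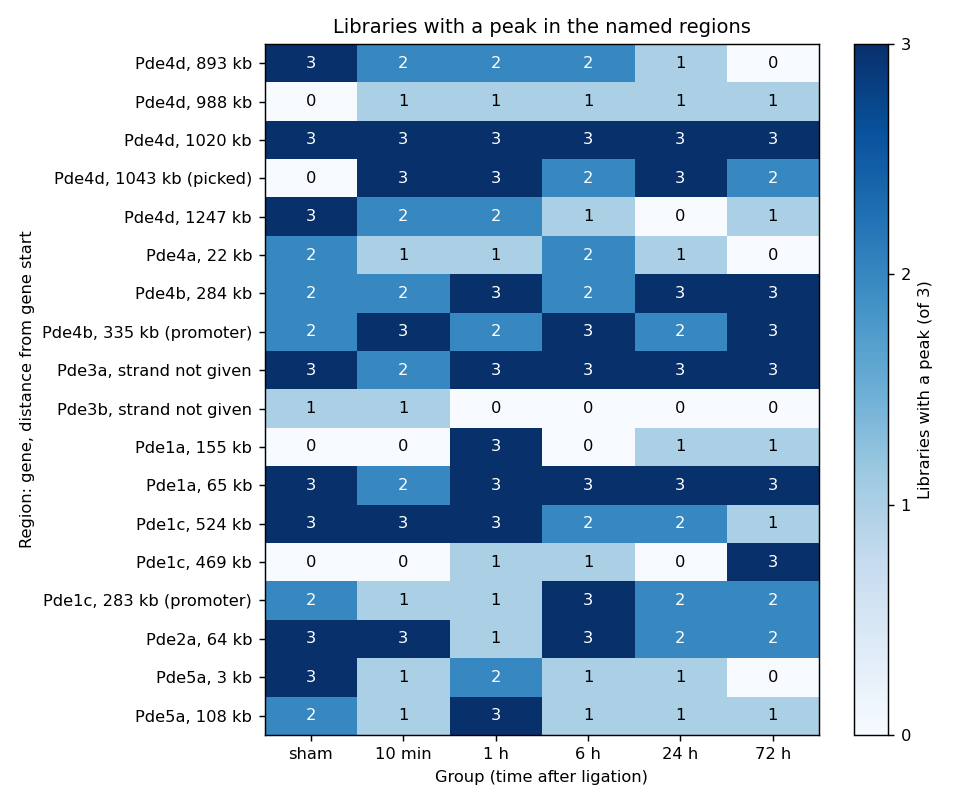
Number of libraries with a peak (0 to 3, colour and digit) in each group (x axis) for 18 regions of the 9 genes (y axis), named by the distance in kb from the gene start where the strand is given. The chosen Pde4d row reads 0 in sham and 3, 3, 2, 3 and 2 over the times; the Pde4d row at 893 kb reads 3 in sham and falls to 0 at 72 h.

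Gained regions at a time had a peak in all 3 of its libraries and in none of the sham ones; lost regions were the reverse. At any of the 5 times 6 of the 167 regions (3.59%) were gained or lost, 3 in Pde4d and 1 each in Pde1a, Pde1c and Pde5a, against 3.38% of all regions. In order of time, the gained regions numbered 1, 2, 0, 1 and 1, or 0.599%, 1.20%, 0%, 0.599% and 0.599% of the 167. The shares of all regions were 0.216%, 0.225%, 0.201%, 0.393% and 0.719%. The chosen Pde4d region is 1 of those gained at 10 min, 1 h and 24 h. The lost regions numbered 0, 0, 0, 1 and 2, or 0%, 0%, 0%, 0.599% and 1.20%, beside 0.624%, 0.553%, 0.706%, 0.524% and 0.397% of all regions. Over all MI libraries no member region was lost (no more than 3 MI libraries but every sham library with a peak), against 0.252% of all regions. Counted over any of the 5 times, the member share was near that of the whole series, while the shares at single times rest on 0 to 2 regions. Since Pde4d was chosen by this contrast, its part of the count supports nothing. Of the 3 in other genes, each lost its call at a score of at least 70. All times share the same 3 sham libraries.

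Presence in 15 MI against 3 sham libraries was tested by Fisher's exact test (two-sided), adjusted over all regions by the Benjamini-Hochberg method. Of the 152196 regions 0.0% passed an adjusted p of 0.05, and 0.858% had an unadjusted p under 0.05. Among the 91 regions of the 8 genes other than Pde4d, 0 passed after adjustment and 1 before it. That one is chr4:102192554-102193392 in Pde4b, named after its values were seen, with a peak in sham replicates only (2 of 3) and 0 of 15 MI libraries (unadjusted exact p = 0.0196, adjusted p = 1). The smallest p this design allows is 0.00123. To pass after adjustment, that p would be needed in more regions than the 0.858% with an unadjusted p under 0.05. The adjusted counts of 0 therefore say little about single regions.

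Fewer of these regions than of all regions were common to many libraries. A peak in 15 or more libraries was found in 13 of the 167 (7.78%) against 11.1% of all regions, and a peak in a single library in 60 (35.9%) against 29.2%. Of the 13, 8 lay in Pde4d, 2 each in Pde4b and Pde3a and 1 in Pde1a. These shares were not tested.

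Methylated length was compared between genes as the percentage of the gene and its flanks under peaks. The order of the means over 18 libraries was Pde2a (2.28% ± 1.83), Pde5a (2.12% ± 1.31), Pde4a (1.86% ± 1.44), Pde4d (1.80% ± 0.322), Pde3a (1.14% ± 0.332), Pde1a (0.709% ± 0.357), Pde4b (0.631% ± 0.209), Pde1c (0.573% ± 0.219) and Pde3b (0.121% ± 0.238), each with its SD. Neighbours in this order lay within 1 SD of each other, except Pde4d above Pde3a, Pde3a above Pde1a and Pde1c above Pde3b. The median of all protein-coding genes was 1.56%, and that of the 2429 genes of at least 100000 bases was 1.81%. Among those long genes Pde3b stood at percentile 4.65, Pde1c at 15.6, Pde4b at 17.3, Pde1a at 19.2 and Pde4d at 49.5. So the order ran from genes in the sparse part of the distribution to genes near its middle, with none at the high end.

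No percentage of a tested gene passed the test of change over time given below. In Pde4d sham libraries had 1.89%, 1.82% and 2.01%. The 10 min libraries had 1.997%, 2.29% and 1.44%, the 1 h libraries 1.35%, 1.64% and 1.93%, and the 6 h libraries 1.73%, 1.93% and 1.88%. Later, the 24 h libraries had 1.28%, 1.73% and 1.49% and the 72 h libraries 1.40%, 2.43% and 2.11%. The 24 h libraries all lay below the sham ones, and at every other time the groups overlapped. The difference over all MI libraries was -0.10 ± 0.24 (SE) on the log2 scale used below. So the percentage over the whole gene differed by less than its SE. Peaks in the chosen region were 413 to 1319 bases wide in a gene of 1301793 bases, so this percentage could hardly reflect that region. The difference is a description and does not show that the values are equal.

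Pde3a was the gene whose percentage was higher in most MI libraries. Sham libraries had 0.577%, 0.940% and 0.935%. The 10 min libraries had 1.55%, 1.65% and 1.07%, the 1 h libraries 0.842%, 1.42% and 0.635%, and the 6 h libraries 1.08%, 1.69% and 1.02%. Later, the 24 h libraries had 0.963%, 1.19% and 0.969% and the 72 h libraries 1.18%, 1.62% and 1.14%. Of the 15, 13 lay above every sham value, and 1 h replicates 1 and 3 did not. The log2 difference was 0.36 ± 0.26 (SE), with a limma adjusted p of 0.983. An exact permutation test of this gene alone, two-sided, gave an unadjusted p of 0.0417, 1 of 7 such tests. With only peaks scoring at least 70 the difference was -0.0023.

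Pde2a had a lower mean after MI. Sham libraries had 2.79%, 7.41% and 1.74%, the MI libraries 0% to 5.15% with a mean of 1.94% ± 1.43 (n = 15), and the ranges overlapped. The log2 difference of MI from sham was -0.95 ± 0.64 (SE; limma adjusted p = 0.983). Its direction turned to 1.26 at a score of at least 70, where the region described above keeps 0 sham libraries. The largest difference at 1 time was also in Pde2a, at 1 h, where the libraries had 1.02%, 2.10% and 0% (log2 difference -1.63 ± 0.82, limma unadjusted p = 0.0685, adjusted p = 0.927).

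**Figure D5:**
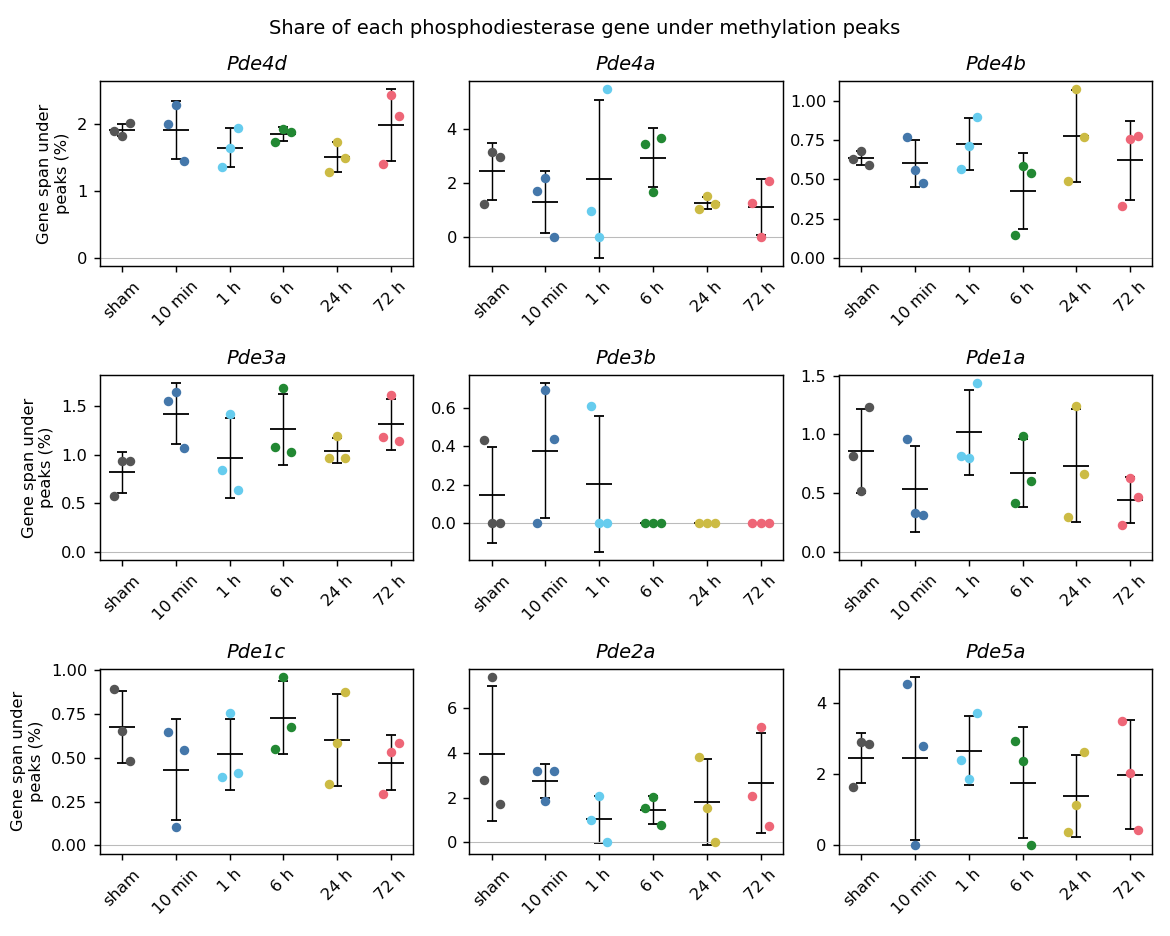
Percentage of each gene and its flanks under peaks (y axis, each panel with its own scale) by group (x axis); points are libraries, and bars are the mean and SD of 3 libraries. The Pde3a points after MI lie mostly above the sham points (0.577% to 0.940%), and in every panel the ranges of sham and MI libraries overlap.

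The remaining genes gave log2 differences of MI from sham of -0.65 ± 0.67 (Pde4a, SE), -0.04 ± 0.25 (Pde4b), -0.23 ± 0.31 (Pde1a), -0.18 ± 0.26 (Pde1c) and -0.49 ± 0.70 (Pde5a). The median of all 12628 genes tested was -0.13. Pde3b, with a peak in 4 libraries, did not pass the filter of a peak in at least 6 libraries, so 8 of the 9 genes were tested. The filter used all libraries and not the groups.

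The limma test with Benjamini-Hochberg adjustment over all genes called 0 of the 7 tested genes other than Pde4d in any comparison with sham. For MI against sham 0.0317% of all genes were called, for the 6 groups together 0.174%, and for the single times against sham, earliest first, 0.0396%, 0.0475%, 0.0396%, 0.0317% and 0.0158%. Among the 5 MI times alone Pde4d was tested too. The choice of Pde4d also required a peak in most MI libraries, so its test is not independent of the choice. Among these times 0 of 8 genes were called, against 0.214% of all genes. Unadjusted, 0 of these genes had a limma p under 0.05 in any of these comparisons. The shares of all genes were then 4.13% for MI, 6.72% for the 6 groups, 7.11% for the 5 MI times, and 4.78%, 4.81%, 5.69%, 4.42% and 4.39% for the single times in the same order. Adjusted p for the members ranged from 0.924 upwards among the MI times. A p that misses the threshold does not show that values are equal. In simulated 72 h libraries the same test found 23% of genes changed by 2 on the log2 scale and 57% of those changed by 4. The changed genes were drawn at random from all tested genes, each with its own spread and no lower limit at 0%. These shares therefore do not hold for the members, whose SE at 72 h ran from 0.30 (Pde4d) to 0.90 (Pde5a).

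The rest of the pathway was read in the same way from lists of genes. Of 15 other phosphodiesterase genes 11 were tested, with a median log2 difference of MI from sham of -0.21. Of 45 genes of cAMP and cGMP signalling, covering receptors, cyclases and G proteins, kinases and other effectors, anchoring proteins and calcium-handling targets, 39 were tested, with a median of -0.02 beside -0.13 for all genes. After adjustment 0 genes of either list were called in any comparison. Before it 2 of the 39 had a limma p under 0.05 for MI against sham, a share near the 4.13% of all genes. By part, the medians were 0.40 for receptors, -0.50 for cyclases and G proteins, 0.05 for effectors, 0.01 for anchoring proteins and 0.05 for targets. Percentages under peaks summed over the 11 cyclase and G protein genes were 41.1 to 55.9 in sham. They were lower at 1 h (20.1 to 37.5) and 6 h (23.9 to 32.9) and overlapped sham at the other times. The sum over all 45 genes lay below sham (134 to 188) only at 6 h (117 to 132). These sums were not tested.

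Marker genes of 4 cell types were summed in the same unit, as percentages under peaks over 10 genes each. Cardiomyocyte markers summed to 26.5 to 35.8 in sham and, earliest time first, to 21.4 to 32.8, 26.8 to 45.2, 13.9 to 30.8, 9.97 to 61.8 and 42.4 to 62.4 after MI. Only the 72 h libraries, whose lists held 48608 to 60653 peaks against 44328 to 60130 in sham, did not overlap sham. The sums of leukocyte (sham 1.06 to 17.7), fibroblast (15.7 to 24.2) and endothelial markers (21.6 to 41.1) overlapped sham at every time. Of the 10 genes in each list, 5 cardiomyocyte, 3 leukocyte, 7 fibroblast and 9 endothelial markers passed the filter and were tested. After adjustment 0 of these were called in any comparison, against 0.0158% to 0.214% of all genes. Before it, at 72 h, 2 cardiomyocyte, 1 leukocyte, 0 fibroblast and 0 endothelial markers had a limma p under 0.05, against 4.39% of all genes. For MI against sham the counts were 0, 0, 1 and 0 in the same order, against 4.13%. Peaks over these genes give no level of expression. The leukocyte genes Cd68, Lyz2, S100a8, S100a9 and Ly6g and the fibroblast gene Tcf21 had no peak in any library. The part of cell mix in the values above was not tested.

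Outside Pde4d, the regions whose presence over the 18 libraries was most like that of the chosen region were sought by the number of libraries in which they differed. Differing in 1 library were 3 regions, whose nearest genes are the predicted genes Gm47403 (chr9:89548609-89549406), Gm33588 (chr8:33958268-33960393) and Gm32931 (chr10:68890270-68892561), each with 13 MI and 1 sham library; those genes lie 1587, 3820 and 67496 bases from the regions. Regions within Nkain3 (chr4:20191606-20192189) and Negr1 (chr3:157244269-157245450) differed in 2. Counting all ties, 51 of the 152196 regions differed from it in at most 2 libraries.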

How the data were processed

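DNA methylation was measured by MeDIP-seq in 18 libraries. Bowtie2, MACS2 and mm10 are named per the submitters' processing notes, without versions or roles; the use of an input library is not given in the sources used here. The authors deposited 1 peak list for each library, with a score per peak whose scale is not stated. The members and gene lists were chosen with earlier results of these data known. Named regions were the chosen one, each gene's most shared region, gained and lost regions, regions at promoters and the Pde4d region next after the chosen one.

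Positions are mm10, counted from 1. Genes and promoters are from RefSeq GRCm38.p6, which has the same chromosomes. Peaks overlapping by at least 1 base were merged. For each gene, log2(percentage under peaks + 0.5) was tested with limma 3.58.1 in R 4.3.3 (moderated with a trend) over 12628 genes with a peak in at least 6 of the 18 libraries. The script was tested on simulated data. Single genes were tested by permutation (100000 relabelings, or exact). Replicates are separate mice per the labels; of 153 pairs of lists none shared more than 3 identical peaks. Same-numbered libraries did not deviate together, so numbers were not used as pairs. Exon and intron positions were not analysed here.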

Additional observations from a re-analysis of the deposited data

How the results depend on the processing

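Every count of called member genes, in each of the 8 comparisons, stayed at 0 in all alternatives run: pseudocounts of 0.1 and 1 percentage points, flanks of 10000 bases, no filter, a score of at least 70, lists of 34255 peaks each, the replicate block, and each library left out in turn (0 to 0). The permutation test was run for single members and not over all genes. The lowest adjusted p of any member other than Pde4d against sham was 0.53, for Pde4a at 10 min at a score of at least 70. Called genes of the whole table over the 6 groups numbered 22, with 4 at a score of at least 70, 42 without the filter, and 14 to 41 with 1 library left out (14 without 10 min replicate 3, 41 without 6 h replicate 2). Among the MI times they numbered 27, with 3 for equal lists and 51 without the filter. For MI against sham they numbered 4, with 0 at a score of at least 70, 8 without the filter, and 1 without sham replicate 3.

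With the replicate number as a block, 0 members were called, and the 6 groups gave 13 genes; correlations of same-numbered libraries were -0.0645 to 0.0656, so the block only shares a number.

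The sign of the log2 difference of MI from sham turned for Pde4b (0.29 at a score of at least 70, 0.21 for equal lists, 0.0113 without 6 h replicate 1, 0.0038 without 72 h replicate 1), Pde2a (1.26 and 0.29 in the same pair of settings), Pde3a (-0.0023) and Pde1a (0.0546) at a score of at least 70, and Pde4d (0.0453) for equal lists. At a score of at least 70 the peaks left out are by construction the weak ones. Leaving out 1 library moved Pde2a between -1.35 (without sham replicate 3) and -0.43 (without sham replicate 2), Pde3a between 0.22 (without sham replicate 1) and 0.43 (without sham replicate 2), Pde4b between -0.0693 and 0.0113, Pde1a between -0.42 (without sham replicate 2) and -0.0345 (without sham replicate 3), Pde1c between -0.30 (without sham replicate 3) and -0.0519 (without sham replicate 1), Pde5a between -0.71 (without sham replicate 1) and -0.29 (without 10 min replicate 2), and Pde4a between -0.997 (without sham replicate 1) and -0.45 (without sham replicate 2). The unknown depth limits every absence of a peak and every comparison of scores between libraries.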
